A study of Mus musculus with 12 samples.

Results

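Type I interferon-stimulated genes (ISGs) were followed as a fixed set of 33 gene symbols through the immune cells of MC38 tumors. The rule that defines the set is a list of names and uses no measured value, though the list was drawn up with earlier results of these data known, and 32 of the 33 symbols were found among the 31053 genes of the count matrix. Mx2, the remaining symbol, was not analysed here. The 32 members took 0.488% of all unique molecular identifiers (UMIs, each a counted transcript) of the cells kept. By role, 3 are transcription factors of the interferon response, 3 are nucleic acid sensors, 3 belong to the ISG15 system, 10 bind or degrade RNA, and 13 are other effectors.

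The study tested inhibition of the histone methyltransferase EZH2 together with an agonist antibody against the costimulatory receptor 4-1BB. Its scRNA-Seq of tumor-infiltrating immune cells asked how EZH2 inhibition affects antitumoral CD8+ T cells. MC38 cells, a mouse colon adenocarcinoma line, were injected under the skin of C57BL/6 mice, and CD45+ cells (all leukocytes) were isolated with magnetic beads on day 17 for scRNA-Seq. There were 4 groups of 3 samples. The mice were given vehicle for 7 days, EZH2i (PF-06821497, 100 mg/kg daily) for 7 days, vehicle for 16 days, or EZH2i for 16 days. Every mouse carried a tumor and the labels name no other treatment, so the series holds no normal tissue and no interferon-treated control. The 12 libraries in the matrix carry numbers from 1 to 12 that no label ties to a mouse or a group, and neither library order nor cell number was used to infer a group. EZH2i was not compared with vehicle for that reason, and each library is given as a value of its own, with no p-value.

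Type I interferons are secreted cytokines that signal through a receptor of the IFNAR1 and IFNAR2 chains on nearly every cell. The receptor's kinases, JAK1 and TYK2, activate STAT2, which acts with IRF9 in the complex ISGF3. ISGF3 binds the interferon-stimulated response element, a repeat of GAAA letters, in the promoters of ISGs. In tumors, ISGs are known as a readout of interferon made locally, and several of them also respond to interferon gamma or to viral and self nucleic acids.

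The promoter letters of 6 members are shown first, because the response element is what these genes are known to share. The choice of the list of members did not use it. All 6 promoters shown hold a match to the motif searched, which not every member does. Sequences are from RefSeq on GRCm38.p6, 5′ to 3′ on the strand of the gene. The motif searched was GAAA, any 2 bases, and GAAA again, on either strand (TTTC, any 2 bases, TTTC on the other). Capitals mark each match, and overlapping matches run together.
Isg15: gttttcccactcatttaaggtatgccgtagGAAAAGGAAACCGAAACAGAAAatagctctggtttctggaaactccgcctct
Rsad2: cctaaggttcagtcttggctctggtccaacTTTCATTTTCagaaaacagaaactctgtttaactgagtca
Ifit1: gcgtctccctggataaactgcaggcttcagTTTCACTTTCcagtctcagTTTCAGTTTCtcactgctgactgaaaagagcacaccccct
Ifit3: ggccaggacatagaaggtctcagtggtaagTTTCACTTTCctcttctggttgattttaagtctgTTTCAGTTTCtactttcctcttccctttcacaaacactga
Ifit3b: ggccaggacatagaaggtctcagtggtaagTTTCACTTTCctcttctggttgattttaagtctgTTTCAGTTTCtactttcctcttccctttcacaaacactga
Bst2: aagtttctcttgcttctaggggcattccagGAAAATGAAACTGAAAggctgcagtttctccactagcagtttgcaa

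The Isg15 stretch lies at chr4:156200845-156200926 on the minus strand and holds 3 overlapping matches, which begin 78 to 66 bases before the start site. The Rsad2 stretch, at chr12:26456533-26456602 on the minus strand, holds 1 match 120 bases before the start. Ifit1 has 2 separate matches at chr19:34640755-34640843 on the plus strand, 104 and 85 bases before the start. The Ifit3 stretch (chr19:34583343-34583446) and the Ifit3b stretch (chr19:34607739-34607842), both on the plus strand, are identical in 104 of 104 bases, so these neighbours share this piece of promoter letter for letter. Bst2 has 2 overlapping matches at chr8:71537557-71537632 on the minus strand, 130 and 124 bases before the start.

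Of the 32 members, 24 had a promoter in the table, from 250 bases before to 50 after the start. A match on either strand was found in 12 of these 24 (50%), against 3.99% of 27025 genes in the same table. Counted by window, it was in 44.8% of 29 member windows and in 3.44% of 32851 windows in all. Irf7, Ifit2, Isg20, Oasl1, Oasl2, Cmpk2, Herc6, Ifi44, Ifi47, Irf9, Phf11d and Xaf1 had no match, which says only that these letters are not in this window. All 32 members matched the GENCODE M21 annotation by identifier and are protein coding. They lie on many chromosomes, with 5 on chromosome 5, where the Oas and Oasl genes are, and the 4 Ifit genes in a row on chromosome 19 from Ifit2 at chr19:34550694-34576419 to Ifit1 at chr19:34640871-34650009. Reads of near-identical copies (Ifit3 with Ifit3b, Oas1a with its neighbours, and the Ifi204, Trim30, Phf11 and Slfn families) may have been split or lost in counting, so these single levels are less certain.

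After the study's limits, 128912 of 140639 barcodes were kept. A class was given to 100398 of them (77.9%) from lineage transcripts that are not members, while 23178 passed no gate and 5336 passed several. C1q macrophages were by far the most numerous class, with 84882 cells. The other classes described included 3614 CD8+ T cells, 2091 Ly6c2-high monocytes, 1748 neutrophils, 1274 mature dendritic cells (DCs), 847 type 1 conventional DCs (cDC1), 732 CD4+ T cells, 470 NK cells and 201 plasmacytoid DCs (pDCs). Each class named here had higher levels of marker transcripts that its gate did not use, such as Mmp9 in neutrophils, Plac8 in monocytes, Apoe in macrophages and Ly6d in pDCs. The subsets of macrophages and neutrophils were not checked in this way. Libraries held 20580550 to 100452772 UMIs, with medians of 2291 to 15081 per cell. Libraries 1 to 6 contained Y-linked transcripts (128 to 209 CPM, UMI counts scaled to a common library total) and almost no Xist, while libraries 7 to 12 contained Xist (658 to 870 CPM) and no Y-linked transcript. The study's methods name female mice. Values are given for both sets where a result touches them. Of the barcode sequences, 1877 occurred in more than 1 library (3775 cells, 2.93%).

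Summed over the members, the ISGs were highest in neutrophils and Ly6c2-high monocytes and lowest in lymphocytes, cDC1 and mature DCs. Values are CPM of the class in each library with at least 20 of its cells, given as the lowest, the median and the highest library. Transcripts were counted at their 3′ end, so levels of different genes need no correction for length. Neutrophils ranged from 6327 to 15993 CPM with a median of 9269 over 10 libraries. Ly6c2-high monocytes ranged from 5773 to 11578 CPM with a median of 7194 over 12 libraries. C1q macrophages ranged from 3695 to 6503 CPM with a median of 4880 over 12 libraries. These ranges overlap, but within a library the order was nearly fixed: neutrophils were above macrophages in 10 of 10 libraries (median ratio 2.13) and above monocytes in 9 of 10, and monocytes were above macrophages in 12 of 12 (median ratio 1.59). Without Rsad2, neutrophils were above monocytes in 6 of 10 libraries, and above macrophages still in 10 of 10 (median ratio 1.67).

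**Figure D1:**
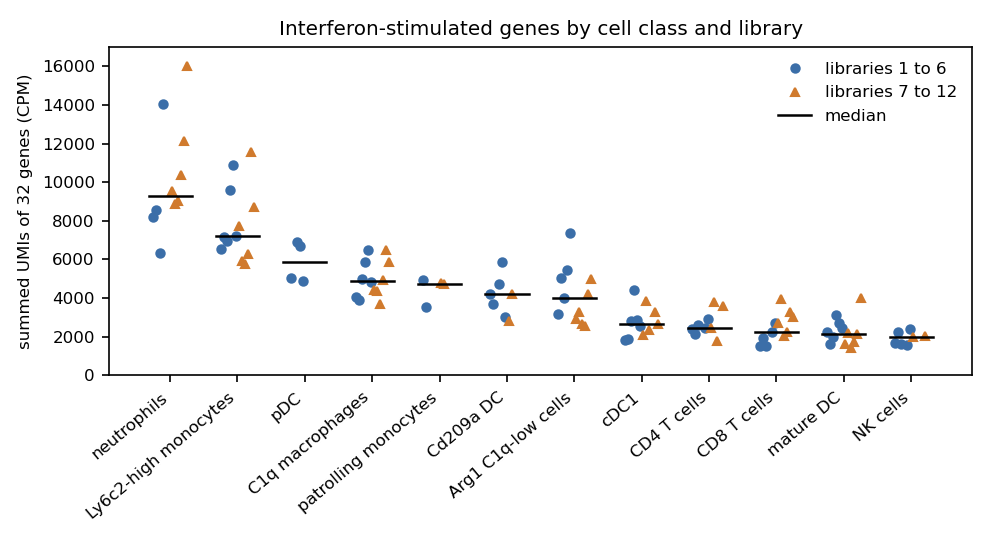
Summed level of the 32 members (CPM, linear axis from 0) in 12 cell classes. Each point is a library with at least 20 cells of the class, circles for libraries 1 to 6 and triangles for libraries 7 to 12, and bars are medians over libraries. Neutrophils (median 9269 CPM) and Ly6c2-high monocytes (7194 CPM) stand above C1q macrophages (4880 CPM), and CD8+ T cells (2259 CPM) and mature DCs (2163 CPM) lie low.

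The pDCs, known for making type I interferon, ranged from 4866 to 6895 CPM with a median of 5859 in 4 libraries. They were above the macrophages of their own library in 4 of 4, by a median ratio of 1.10, but below them in 4 of 4 once Bst2 was left out of the sum (median ratio 0.653). Among lymphocytes, CD8+ T cells ranged from 1517 to 3953 CPM with a median of 2259 over 11 libraries. Macrophages were above CD8+ T cells in 11 of 11 libraries (median ratio 2.0) and above NK cells in 7 of 7 (2.40). The dendritic classes differed among themselves, with a median of 4192 CPM in Cd209a DCs, 2653 CPM in cDC1 and 2163 CPM in mature DCs. Macrophages were above cDC1 in 11 of 11 libraries and above mature DCs in 12 of 12.

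Several neighbours in this order were not separated. Patrolling monocytes (4750 CPM) were above macrophages in 3 of 4 libraries. CD4+ T cells (2445 CPM) were above cDC1 in 5 of 9 and above CD8+ T cells in 6 of 9. CD8+ T cells were above mature DCs in 7 of 11. B cells had the lowest median, 1135 CPM, but only 2 libraries held enough of them. Within the macrophages, the subset gated on Cxcl9, itself an interferon target, had a median of 5670 CPM, the 29758 macrophages of no named subset 5158 CPM, the Folr2 Mrc1 subset 4694 CPM, the cycling subset 4403 CPM and the Arg1 subset 4392 CPM.

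Macrophage RNA outside macrophages was measured beside these values. The C1q transcripts stood in CD8+ T cells at a median of 2.25% of their macrophage level (1.33 to 14.98% over libraries), in neutrophils at 2.74% and in pDCs at 3.73%. Member RNA carried over at the same percentage would come to a median of 4.24% of the CD8+ T cell sum (2.73 to 26.4%), 5.21% of the mature DC sum (3.26 to 29.5%), 3.46% of the pDC sum and 1.63% of the neutrophil sum. In the other direction, S100a8 and S100a9 stood in macrophages at a median of 0.0605% of their neutrophil level. The part of such RNA in single member levels was not tested.

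The members did not share 1 order of classes. The highest median level was in neutrophils for 15 members, in Ly6c2-high monocytes for 12, in pDCs for 4 and in patrolling monocytes for Parp14, an ADP-ribosyltransferase. The map of medians by class shows this division, with the Ifit, Oas and Oasl genes other than Oas1a to the side of the neutrophils and the sensors to the side of the monocytes.

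**Figure D2:**
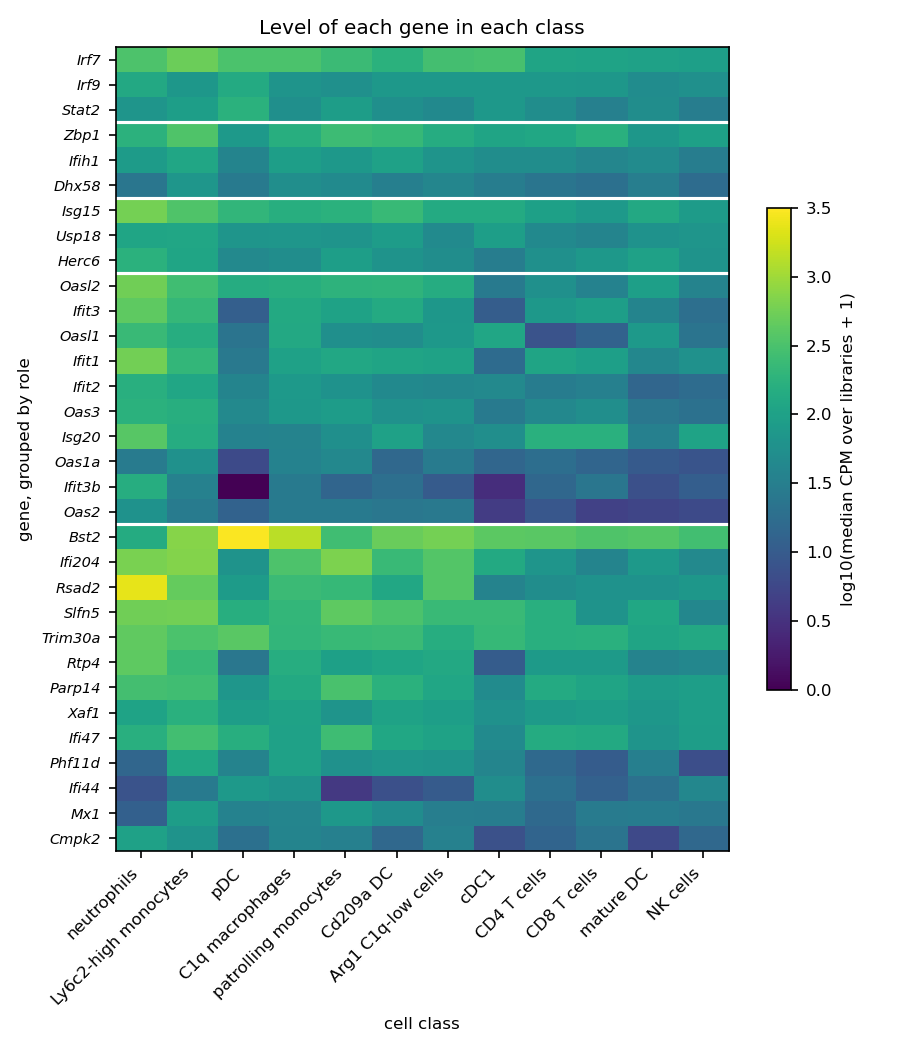
Median level over libraries of each of the 32 members (rows, ordered by role) in 12 cell classes (columns), as log10 of CPM with 1 added. Bst2 is brightest in pDCs (2986 CPM) and macrophages (1365 CPM), and Rsad2 is brightest in neutrophils (2343 CPM).

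Among the transcription factors, Irf7, the factor that amplifies interferon production, was the most abundant. Its level ranged from 425 to 930 CPM in Ly6c2-high monocytes (median 511), from 259 to 463 CPM in macrophages (median 325) and from 55.9 to 181 CPM in CD8+ T cells (median 106). Monocytes and CD8+ T cells did not overlap. Irf9, a partner in ISGF3, had medians of 136 CPM in pDCs (78.0 to 234 CPM) and 129 CPM in neutrophils (49.8 to 279 CPM), which overlapped, against 64.3 CPM in macrophages. Stat2, its partner, ranged from 137 to 289 CPM in pDCs (median 174), and the medians of neutrophils and macrophages were 66.2 and 54.1 CPM.

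The sensors were highest in Ly6c2-high monocytes. Zbp1, which binds left-handed nucleic acid and can start cell death, ranged from 244 to 566 CPM in monocytes (median 346) and from 127 to 270 CPM in macrophages (median 157). In CD8+ T cells its median was 165 CPM, close to that of macrophages. The RNA sensors Ifih1 (MDA5) and Dhx58 (LGP2) had medians of 117 and 67.5 CPM in monocytes, 91.5 and 52.7 CPM in macrophages and 39.2 and 18.8 CPM in CD8+ T cells.

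In the ISG15 system, Isg15 encodes the ubiquitin-like modifier, Herc6 the ligase that attaches it in mice and Usp18 the protease that removes it. Isg15 ranged from 249 to 1202 CPM in neutrophils (median 578), from 190 to 1867 CPM in monocytes (median 339), from 76.1 to 727 CPM in macrophages (median 156) and from 27.0 to 344 CPM in CD8+ T cells (median 77.6). These ranges over libraries were wide and overlapped between classes. Herc6 followed the same order of medians at the top, with 171 CPM in neutrophils and 113 CPM in monocytes. Usp18 had nearly equal medians in neutrophils and monocytes (115 and 117 CPM).

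The RNA-binding group had its highest medians in neutrophils, except for Oas1a, which was highest in monocytes. Ifit1, which binds viral RNA caps, ranged there from 321 to 1280 CPM (median 572), against a median of 208 CPM in monocytes, 100.2 CPM in macrophages and 15.9 CPM in cDC1. Its neighbour Ifit3 had a median of 431 CPM in neutrophils, 132 CPM in macrophages and 9.66 CPM in cDC1. Oasl2, of the oligoadenylate synthetase family, had medians of 555, 267, 155 and 25.4 CPM in neutrophils, monocytes, macrophages and cDC1. In cDC1 these 3 genes were low, while Irf7 (300 CPM) and Trim30a (220 CPM) did not. Isg20, an RNA exonuclease, stood apart with 389 CPM in neutrophils, 165 CPM in CD8+ T cells, 146 CPM in monocytes and 35.8 CPM in macrophages.

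Among the other effectors, Bst2 (tetherin, which holds budding virus at the membrane and is the pDC antigen PDCA-1 in mice) was the most abundant member over all cells with a class. In pDCs it was 3335 CPM in library 2, 2636 CPM in library 4, 3466 CPM in library 5 and 2335 CPM in library 6. In macrophages it ranged from 988 to 1767 CPM (median 1365) and in neutrophils from 99.6 to 427 CPM (median 143). The pDCs lay above every macrophage value, and the macrophages above every neutrophil value. Bst2 made up 49.9% of the member UMIs in pDCs and 26.3% in macrophages at the median library, against 10.4% in monocytes. The macrophage sum without it was 3558 CPM at the median.

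Rsad2 encodes viperin, which makes a chain-terminating nucleotide. In neutrophils it was 1764, 2334, 1627 and 2663 CPM in libraries 1, 2, 3 and 4, and 2778, 2079, 1531, 2352, 2880 and 3607 CPM in libraries 7 to 12. In monocytes it ranged from 303 to 803 CPM (median 476), in macrophages from 143 to 302 CPM (median 241) and in CD8+ T cells from 30.8 to 123 CPM (median 59.3). No neutrophil value overlapped those of the other 3 classes, and Rsad2 took 23.1% of the neutrophils' member UMIs. Ifi204, a DNA-binding protein of the HIN-200 family, had medians of 706 CPM in monocytes, 626 CPM in neutrophils, 334 CPM in macrophages and 36.8 CPM in CD8+ T cells. Slfn5, of the Schlafen family, had 561, 543, 209 and 61.9 CPM in the same classes. Trim30a, a tripartite motif protein, had 321, 442, 199 and 165 CPM, with 407 CPM in pDCs. Mx1, a dynamin-like GTPase that is defective in most inbred mice, had 88.3 CPM in monocytes and 10.7 CPM in neutrophils.

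Differences between classes were then read gene by gene. A gene was called where the median over libraries of the ratio within a library, with 5 CPM added to both levels, was at least 2-fold and the direction was the same in every library. The share of all tested genes called by the same rule (at 5 CPM or more in 1 of the classes) is given as the background. Between Ly6c2-high monocytes and C1q macrophages, 9 of 32 members were called higher in monocytes, against 2.41% of all genes, and 0 were called higher in macrophages, against 4.9%. The median log2 ratio was 0.74 over the members and -0.13 over all genes, over 12 libraries. Isg20 (log2 ratio 1.85) and Ifi47 (1.51), a GTPase of the p47 family, differed most. They were followed by Slfn5 (1.40), Isg15 (1.34), Oas3 (1.19), Ifi204 (1.18), Mx1 (1.15), Zbp1 (1.10) and Rsad2 (1.02). Isg20 ranged from 88.7 to 285 CPM in monocytes and from 24.8 to 54.4 CPM in macrophages, without overlap.

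Between neutrophils and macrophages, the members leaned to neutrophils. Of the 32 members, 14 (43.8%) were called higher in neutrophils, against 8.46% of all genes, over 10 libraries. Another 4 (12.5%) were called higher in macrophages, which is below the 32.7% of all genes. The median of all genes was shifted toward macrophages by 0.82 on the log2 scale. After that shift was taken out, an alternative chosen after seeing the data, 21 members were higher in neutrophils (18.3% of all genes) and 2 in macrophages (9.36%). Isg20 (10.6-fold) and Rsad2 (10.1-fold) differed most, and Ifit1 (6.34-fold), Ifit3b (4.96-fold) and Isg15 (4.21-fold) came next. Bst2 was 7.46-fold and Ifi44, a cytoplasmic protein induced by interferon, 5.48-fold higher in macrophages before the shift was removed. Phf11d and Mx1 were the other members called higher in macrophages.

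Between CD8+ T cells and macrophages, 12 members were called higher in macrophages (14% of all genes) and Isg20 alone in CD8+ T cells (8.64% of all genes). Isg20 was 123 to 207 CPM in CD8+ T cells and 24.8 to 54.4 CPM in macrophages, a median of 4.14-fold. The largest differences the other way were Oasl1, an inhibitor of Irf7 translation, at 9.09-fold, and Ifi204 at 8.63-fold. Phf11d (6.67-fold), Oasl2 (4.17-fold), Rsad2 (3.84-fold), Bst2 (3.65-fold) and Irf7 (2.89-fold) were also higher in macrophages. The median log2 ratio was -0.66 over the members and 0.07 over all genes, over 11 libraries.

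In cDC1, the cells that cross-present tumor antigen, 13 members were called lower than in macrophages (12.3% of all genes) and 0 higher (5.06%). Rtp4, a chaperone of receptors, differed most, from 0 to 48.3 CPM in cDC1 (median 9.53) and from 112 to 197 CPM in macrophages, a median of 9.44-fold. Ifit3 (8.42-fold), Rsad2 (5.83-fold) and Ifit1 (4.86-fold) followed. In library 8 the cDC1 value of Ifit3 was 139 CPM, far above the 0 to 27.8 CPM of the other 10 libraries.

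Between pDCs and cDC1, over 4 libraries, 4 of 31 members tested were called higher in pDCs (12.9%, against 10.2% of all genes) and 1 higher in cDC1 (3.23%, against 9.09%), so neither share stood far above the background. Bst2 was 7.18-fold and Oasl2 3.49-fold higher in pDCs, with Ifi47 and Stat2 also called, and Oasl1 was 4.28-fold higher in cDC1. Retnlg+ and Retnlg- neutrophils had 0 members called in either direction (0.121% and 0.151% of all genes, 9 libraries), and their sums had medians of 9386 and 10618 CPM. NK cells and CD8+ T cells had 0 members called as well (1.18% and 2.55%, 7 libraries).

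The rest of the pathway was read from lists of names by the same rule. No receptor was called between monocytes and macrophages (0 of 5 tested, against 2.41% and 4.9% of all genes higher in each). None was called between macrophages and neutrophils either (0 of 5, against 32.7% and 8.46%). Between pDCs and cDC1, 4 of 5 receptor genes tested were called in their 4 shared libraries. Ifnar1 (median 326 CPM against 150.3 CPM), Ifnar2 (246 CPM against 51.5 CPM) and Il10rb (103 CPM against 42.3 CPM) were higher in pDCs (10.2% of all genes), and Ifngr1 (72.8 CPM against 225 CPM) was higher in cDC1 (9.09% of all genes). The chains of the interferon gamma receptor went opposite ways between CD8+ T cells and macrophages. Ifngr1 was called higher in CD8+ T cells (median 569 CPM against 154 CPM) and Ifngr2 lower (9.07 CPM against 145 CPM), and Ifnar2 (41.4 CPM against 139 CPM) and Il10rb (45.6 CPM against 128 CPM) were lower as well. Of 12 signalling genes, Jak2 alone was called between monocytes and macrophages, higher in monocytes (2.41% of all genes, with 4.9% higher in macrophages). Of 19 further type I targets, 6 were called higher in monocytes (Ifitm3, Ifi205, Ifi209, Mndal, Ms4a4c and Samhd1; 2.41% of all genes) and 0 lower. Between macrophages and neutrophils these targets did not lean to neutrophils as the members did. Ifi213 and Mndal were called higher in macrophages (32.7% of all genes) and Ddx60 and Samhd1 in neutrophils (8.46%). Macrophages had 6 of the 19 higher than CD8+ T cells (14% of all genes), which had Ifit1bl1 alone higher (8.64% of all genes). Of 16 genes known mainly as interferon gamma targets, Gbp2 and Igtp were called higher in monocytes (2.41% of all genes) and 0 lower (4.9%).

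Cells of a class differed from each other in their ISG content. With 1000 UMIs drawn at random from each cell, which left out 484 neutrophils, 212 CD8+ T cells and 130 macrophages with fewer, neutrophils held a mean of 12.2 member UMIs, monocytes 7.98, pDCs 6, macrophages 5.13 and CD8+ T cells 2.84. The variance over the mean, which is near 1 for counting error alone, was 12.8 in neutrophils, 7.10 in monocytes, 5.10 in CD8+ T cells, 3.84 in macrophages and 2.41 in pDCs. This measure grows with the mean, so its order over these classes does not rank them by unevenness relative to their level. Cells with at least 10 member UMIs made up a median of 39.0% of neutrophils (23.8 to 62.1% over 10 libraries), 30.1% of monocytes (18.0 to 53.8%), 11.5% of macrophages (6.96 to 21.3%) and 4% of CD8+ T cells (2.87 to 13.8%). Cells with no member UMI made up 5.22% of neutrophils, 5.46% of macrophages and 23.9% of CD8+ T cells.

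Single members were detected in these thinned cells as follows, with exact binomial 95% intervals that cover counting error only. An Isg15 UMI was found in 47.2% of neutrophils (44.4 to 49.9%), 23.5% of macrophages (23.2 to 23.8%) and 11.9% of CD8+ T cells (10.8 to 13.01%). In B cells it was found in 1.48% (0.306 to 4.26%), the lowest share of any class. An Rsad2 UMI was found in 57.1% of neutrophils, 14.5% of macrophages and 6.32% of CD8+ T cells. Bst2 was found in 91.5% of pDCs, 64.9% of macrophages and 19.4% of neutrophils. Without thinning, Isg15 was found in 58.4% of neutrophils, 57.0% of macrophages and 27.1% of CD8+ T cells, at median depths of 1810.5, 5885 and 3212.5 UMIs per cell.

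Whether the members were high in the same cells was read from Isg15, which was set as the seed and is not counted. Cells with an Isg15 UMI were compared with cells without, at equal depth (2000 UMIs in macrophages and monocytes, 1000 in neutrophils and CD8+ T cells), library by library. A gene was called where its median ratio of mean UMIs was at least 2 and above 1 in every library with at least 20 cells of both kinds. In macrophages, 17 of 31 other members were called, against 0.531% of all genes. In monocytes it was 23 of 31 (0.798% of all genes), in neutrophils 11 of 30 tested (0.538%) and in CD8+ T cells 18 of 30 (1.14%). The counts also depend on the depth: at 1000 UMIs, as in neutrophils and CD8+ T cells, monocytes had 8 members called and macrophages 14, and at 500 UMIs CD8+ T cells had 10. The share of all genes called at those other depths is not given here, so these lower counts have no background beside them. The median ratio of the members was 2.13 in macrophages, 2.56 in monocytes, 2.05 in neutrophils and 2.67 in CD8+ T cells, while the median over all genes lay between 0.8999 and 0.970.

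The members differed widely in how closely they followed Isg15. In macrophages the ratio was 4.41 for Cmpk2, the nucleotide kinase beside Rsad2 on chromosome 12, and 4.15, 4.04 and 3.96 for Ifit1, Ifit3 and Rsad2. It was 1.11 for Irf9, 1.27 for Bst2, 1.62 for Zbp1 and 1.77 for Irf7, none of which were called. Bst2, the most abundant member, thus varied little with Isg15 among macrophages. Among the members called, Ifit3b (5.49), Rsad2 (5.46) and Ifit3 (4.81) were highest in monocytes, and in neutrophils the highest included Cmpk2 (6.55) and Ifit3 (3.36). In CD8+ T cells the highest of those called were Slfn5 (6.21), Mx1 (5.90), Oas1a (5.48), Rsad2 (4.86) and Ifit1 (4.62). Mx1 and Oas1a rest on few UMIs, so their rank is uncertain. Their median means were 0.0851 and 0.0417 UMIs per cell with Isg15, and 0.0331 and 0.00644 without. The plot of ratios by member gives the macrophage medians.

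**Figure D3:**
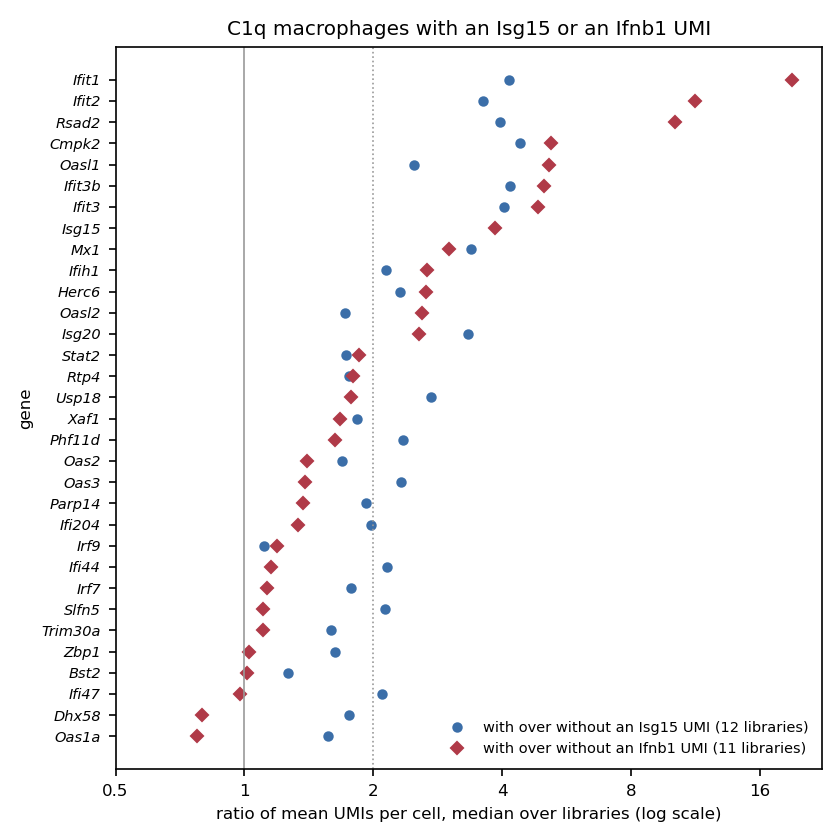
Ratio of mean UMIs per macrophage, by member, between cells with and without an Isg15 UMI (12 libraries) and with and without an Ifnb1 UMI (11 libraries), as medians over libraries on a log axis, with a dotted line at 2. Ifit1 and Rsad2 lie far right for Ifnb1 (19.0 and 10.1) and Bst2 lies near 1 for both (1.27 and 1.01).

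Outside the list, no receptor (5 tested) and no signalling gene (12 tested, 11 in neutrophils) was called in any of the 4 classes. Of all genes, 0.531 to 1.14% were called, so lists this short would rarely hold a call. Of the interferon gamma targets, 3 of 16 were called in macrophages (0.531% of all genes) and 5 of 16 in monocytes (0.798%). It was 2 of 13 in neutrophils (0.538%) and 5 of 14 in CD8+ T cells (1.14%). Cxcl10, a chemokine for T cells, stood at 2.87 in macrophages and 5.38 in CD8+ T cells. Of the further type I targets, 5 of 19 were called in macrophages, 8 of 19 in monocytes, 2 of 19 in neutrophils and 5 of 19 in CD8+ T cells. The same shares of all genes apply. In macrophages Ifit1bl1, an Ifit relative, reached 6.90, and the monocyte transcripts Ly6c2 (2.73, a gene the monocyte gate uses) and Plac8 (2.76) were above 1 in 12 of 12 libraries. In CD8+ T cells with an Isg15 UMI, the myeloid transcripts Aif1 (3.68) and Cd86 (3.68) were above 1 in 5 of 5 libraries and C1qa (1.83) in 3 of 5. Among the 2318 of 3402 CD8+ T cells without a C1q UMI, an alternative chosen after seeing the data, 17 of 29 members were called (1.75% of all genes) over 4 libraries, and Aif1 and Cd86 stood at 4.04 and 3.10. The part of myeloid RNA in the CD8+ T cell values was not tested further.

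The ligands were sparse. Ifnb1 had 1776 UMIs in 388 of 128912 cells (0.301%). The 13 Ifna genes had 16 UMIs in 9 cells, all from 2 of these genes, and Ifne, Ifnl2 and Ifnl3 had 0 UMIs, which allows up to 3 counts each. Interferon beta is known to be made in short bursts by few cells. Its UMIs lay mostly in macrophages, which were also 65.8% of the cells kept. Arg1 macrophages held 615 in 84 cells, with up to 81 UMIs in a single cell. Ifnb1 was found in 0.527% of 15942 Arg1 macrophages, in 0.119% of 9251 Folr2 Mrc1 macrophages and in 0.293% of the cells that passed no gate. Ifng, the type II ligand, had 3615 UMIs in 1424 cells, 1380 of the UMIs in CD8+ T cells.

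The next comparison, of macrophages with and without an Ifnb1 UMI, was chosen after values had been seen. At 2000 UMIs per cell, 277 macrophages with Ifnb1 held a mean of 25.5 member UMIs, against 10.2 in the rest (medians 19 and 8). In the 11 libraries with at least 10 such cells (274 cells) the ratio ranged from 1.91 to 3.57 with a median of 2.54, above 1 in every library. The full depth of these cells spanned a similar range, with library medians of 3940 to 22159 UMIs with Ifnb1 and 3096 to 22218 without.

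Few members made up this difference. By the rule used for Isg15, 8 of 32 members were called (0.294% of all genes). Ifit1 (19.0), Ifit2 (11.3) and Rsad2 (10.1) had the highest median ratios, and Cmpk2 (5.20), Oasl1 (5.14), Ifit3b (5.0), Ifit3 (4.85) and Isg15 (3.84) were the others. Bst2 (1.01), Irf7 (1.13), Zbp1 (1.03) and Ifi47 (0.975) were near 1. Dhx58 (0.797) and Oas1a (0.775) had medians below 1, but each was above 1 in 5 of 11 libraries. Both rest on few UMIs, with median means of 0.0909 and 0.0732 per cell with Ifnb1. The median over the members was 1.72 and over all genes 0.662. Outside the list, Otud1 (15.7), the chemokines Ccl4 (9.19), Cxcl10 (5.17) and Ccl5 (4.29), Gbp5 (3.15) and Cd274 (2.71), which encodes PD-L1, were also called.

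Across the libraries, the macrophage sum and the monocyte sum were high in the same libraries, with Pearson r 0.898 and Spearman rho 0.804 over 12 libraries, and r was 0.784 and rho 0.661 without libraries 5 and 11. Within libraries 1 to 6 r was 0.922 and within libraries 7 to 12 it was 0.891. For macrophages and neutrophils r was 0.722 and rho 0.612 over 10 libraries, and r was 0.670 and rho 0.333 without libraries 4 and 11. For macrophages and CD8+ T cells r was 0.315 and rho 0.418 over 11 libraries. These 4 relations, cDC1 included (r 0.531 and rho 0.682, 11 libraries), describe libraries that share depth and carried-over RNA between their classes.

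In macrophages most members were high, or low, in the same libraries. In library 11 all 32 members were above their median over the 12 libraries, as were 55.7% of all genes. In library 9 it was 0 of 32, with 39% of all genes. Libraries 5, 4 and 12 had 29, 28 and 28 members above the median (60.5%, 48.7% and 43.5% of all genes), while libraries 2 and 1 had 2 and 4 (32.5% and 41%). In library 7 only 5 members were above, with 79% of all genes. Libraries 3, 10, 6 and 8 had 23, 17, 15 and 9 members above (58.3%, 60.2%, 50.8% and 30.8% of all genes).

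Isg15 spread more widely over the libraries than the other members in macrophages and monocytes, but not in every class. In macrophages it was 98.3, 110, 95.9, 331, 727 and 516 CPM in libraries 1 to 6, and 131, 190, 114, 76.1, 180.0 and 207 CPM in libraries 7 to 12. Libraries 4, 5 and 6 lay above all others, and Isg15 made up 5.62%, 11.2% and 10.7% of their member UMIs against 1.54 to 4.35% elsewhere. Ifit3 in the same macrophages was 135, 112, 160, 117, 130.1 and 101 CPM in libraries 1 to 6, and 118, 164, 118, 170.3, 219 and 238 CPM in libraries 7 to 12. In Ifit3, libraries 4, 5 and 6 did not stand out. Ifit3 does not stand for all members, though. Most members were above their median in libraries 4 and 5 (28 and 29 of 32), and 15 were in library 6. Ifit1 (171 CPM) and Oasl2 (255 CPM) were highest in library 4, so Isg15 differed from them in the size of its rise. Over all cells with a class, the highest library was 8.82 times the lowest for Isg15 and 1.75 to 4.70 times for the other members.

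**Figure D4:**
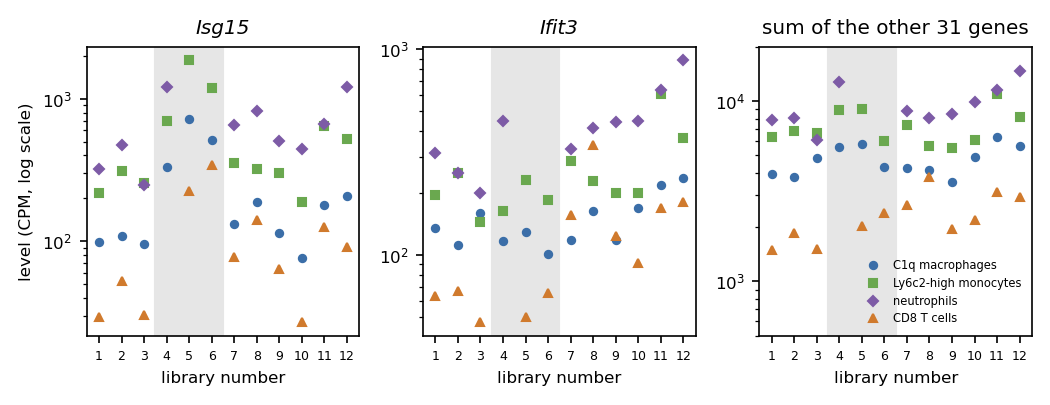
Level (CPM, log axis) of Isg15, of Ifit3 and of the other 31 members summed, by library number, in 4 cell classes. Libraries 4, 5 and 6 are shaded, and there Isg15 in macrophages reached 331 to 727 CPM against 76.1 to 207 CPM in the other 9, without a like rise in Ifit3.

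The same libraries were compared for Isg15 in other classes, a comparison chosen after these values had been seen. In monocytes Isg15 was 694, 1867 and 1184 CPM in libraries 4, 5 and 6 and 190 to 644 CPM in the other 9. In mature DCs it was 427, 503 and 354 CPM against 36.6 to 267 CPM. In CD8+ T cells it was 227 and 344 CPM in libraries 5 and 6 against 27.0 to 141 CPM. In neutrophils, where library 4 alone of the 3 held enough cells, Isg15 was 1202 CPM there and also 1202 CPM in library 12, so library 4 did not stand apart. The members higher in libraries 4, 5 and 6 than in every other library were Isg15 and Zbp1 in macrophages (2 of 32, against 4.38% of all genes), Isg15 and Irf9 in monocytes (2 of 32, 4.18%) and Isg15 in mature DCs (1 of 30, 2.37%), so the number of members was near the background. These libraries had low median depths of 4132, 3974 and 2291 UMIs per cell. In library 10 the median was 4851 UMIs and Isg15 in macrophages was 76.1 CPM. The cause was not tested, and library, mouse and treatment cannot be told apart here.

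The sets of libraries with Y-linked transcripts and with Xist were compared for overlap, also after values had been seen. The labels do not say how these sets fall on the treatments or their length, so a difference between the sets cannot be told apart from either. In macrophages 0 of 32 members were separated in either direction (0.159% and 0.33% of all genes). In monocytes Irf9 was 73.9 to 124 CPM in libraries 1 to 6 and 52.6 to 67.9 CPM in libraries 7 to 12, 1 of 32 members (0.373% of all genes), and 0 were higher in the other direction (0.336%). In CD8+ T cells 4 of 31 members were higher in every library with Xist (1.13% of all genes), and 0 in every library with Y-linked transcripts (0.556%). Ifit3 was 63.3, 66.8, 47.0, 50.2 and 65.6 CPM in libraries 1, 2, 3, 5 and 6, and 156, 341, 124, 91.7, 169 and 181 CPM in libraries 7 to 12. Ifit3b was 8.90 to 14.4 against 22.3 to 76.1 CPM, Ifi47 was 90.8 to 121 against 133 to 233 CPM, and Isg20 was 123 to 164 against 165 to 207 CPM. Isg20 was thus separated by a narrow gap and Ifit3 by a wide gap. The CD8+ T cell sums, 1517 to 2731 and 2018 to 3953 CPM, overlapped.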

How the data were processed

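The members, gene lists and comparisons were chosen with earlier results of these data known. The authors prepared Chromium Single Cell 3′ libraries and deposited 1 matrix of UMI counts for 12 libraries, without normalization. The matrix header names Cell Ranger 3.0.2, while the submitters' processing notes name Cell Ranger 2.1.1, Seurat and the build mm10. Its settings are not given in the sources.

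The study's limits were applied, so that a cell needed over 200 but under 5000 genes, and mitochondrial UMIs of no more than 10%. Classes were gated on UMIs of lineage markers, and cells that passed several gates were left out. No doublet caller was run. Counts were summed per class and library (at least 20 cells) and scaled to CPM. The planned edgeR test of EZH2i against vehicle was not run, because no label ties a library to a group. Calls needed a median of at least 2-fold and the same direction in every library. Named genes were the 8 most abundant members and, per contrast, the 2 largest called differences each way. Others are given by role or chosen after their values were seen. The scripts were tested on simulated data. Intervals are exact Clopper-Pearson at 95%. The scripts ran in Python 3.11.15 with pandas 2.3.3, scipy 1.17.1 and numpy 2.4.6, and plots were drawn with matplotlib 3.10.9. The closing section gives the alternatives tried: other gates, filters, pseudocounts, depths and left-out libraries.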

Additional observations from a re-analysis of the deposited data

How the results depend on the processing

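Sums were set against their SD over libraries, counts of members against a factor of 1.5, and shares against their exact binomial interval. Of the values that did not leave out a library, 100 stayed within these limits and 11 did not. The macrophage sum was 3558 CPM without Bst2, against 4880 CPM. The share of cells with an Isg15 UMI followed the depth and was 13.9% and 35.1% of macrophages at 500 and 2000 UMIs, 29.8% and 64.3% of neutrophils, and 7.55% and 19.8% of CD8+ T cells. Members called with Isg15 numbered 8 in monocytes at 1000 UMIs (23 at 2000) and 10 in CD8+ T cells at 500 UMIs (18 at 1000), where fewer UMIs were counted. No share of all genes is given for the lower depths. The highest over the lowest CD8+ T cell sum was 2.76 with stricter gates (2.61 before). After centring on all genes, 2 members were higher in macrophages than in neutrophils, against 4.

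Leaving out each library in turn gave median sums of 9002 to 9536 CPM in neutrophils, 7163 to 7225 in monocytes, 4810 to 4951 in macrophages, 2241 to 2489 in CD8+ T cells and 2600 to 2744 in cDC1. Members called higher in monocytes than in macrophages numbered 8 to 10, and 0 to 0 the other way. For macrophages and neutrophils it was 4 to 5 and 12 to 17, for CD8+ T cells and macrophages 1 to 1 and 12 to 14, and for cDC1 against macrophages 0 to 0 and 13 to 15. For pDCs against cDC1 it was 3 to 5 and 1 to 3, with 3 higher in cDC1 without library 4 and 2 without library 5 or 6. For NK cells and CD8+ T cells it was 0 to 1 either way, with 1 higher in NK cells without library 6 and 1 higher in CD8+ T cells without library 1 or 2. Retnlg+ and Retnlg- neutrophils stayed at 0. Members called with Isg15 numbered 17 to 17 in macrophages, 21 to 23 in monocytes, 10 to 14 in neutrophils and 16 to 22 in CD8+ T cells, and with Ifnb1 8 to 11.

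No paired analysis was possible because the library numbers are tied to neither mice nor replicate numbers. Thin classes limit the precision: pDCs rest on 4 libraries and B cells on 2.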
